A study of Caenorhabditis elegans with 6 samples.

Results

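Autophagy is the process by which a cell wraps part of its own content in a membrane and delivers it to the lysosome. The vacuolar ATPase is the proton pump that acidifies the lysosome, so that the delivered content can be digested. In Caenorhabditis elegans autophagy removes paternal mitochondria and germ granule remnants in the embryo and is needed for several forms of long life in the adult. The pump also acts in the intestine, the epidermis and the excretory canal. The genes described here are those of the count table whose identifier maps to a symbol starting with atg-, vha- or epg-, together with lgg-1, lgg-2, sqst-1, bec-1, unc-51, lmp-1 and cup-5. The rule found 47 genes among the 46748 in the table, 20 vha genes and 27 genes of autophagy and the lysosome, called autophagy genes below. The symbols epg-1, atg-11 and atg-12 matched no gene under those names.

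RNA came from whole hermaphrodites of the N2 wild-type strain, aged 2 days, an age given relative to the L4 larva in the title of the series. The 3 T25B9.1 RNAi libraries came from worms given RNA interference against T25B9.1, which encodes a glycine C-acetyltransferase that completes a route of threonine breakdown in mitochondria. The 3 L4440 libraries came from worms given the empty vector, and both groups were otherwise described alike. The comparison asks which transcripts differed with the knockdown. No label describes the replicates as separate cultures, and the spread behind the p-values may therefore be a technical one.

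Depth was 26125982 to 40726259 counts per library. The target stood at 1.35, 1.71 and 1.76 CPM (a gene's count as a share of its library's total, scaled to a common total with TMM factors) in the RNAi libraries, against 5.99, 4.99 and 6.39 CPM in the L4440 libraries, with no overlap. Its log2 fold change, RNAi over L4440, was -1.84 (SE 0.184, edgeR quasi-likelihood adjusted p = 0.0525). All 57 markers in 8 tissue lists, from intestine and muscle to germline and neurons, passed the filter on low counts. RNAi replicate 1 differed most from the others. There 10 epidermis and moulting markers summed to 597 CPM, against 293 to 377 CPM in the other 5 libraries. All of these markers but bli-1 and col-19 were highest in RNAi replicate 1. The collagen gene col-19 was lowest there, at 83.0 CPM, against 85.9 to 113 CPM in the other 5. The 7 pharynx markers summed to 199 CPM there, against 60.8 to 93.1 CPM in those 5. Most of that sum came from myo-2 (81.8 CPM) and myo-1 (76.7 CPM). In whole worms, fewer cells of a type and less RNA per cell cannot be told apart.

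None of the 47 genes passed the threshold between T25B9.1 RNAi and L4440, and most differed by little. All 47 passed the filter on low counts, with 87 to 26210 counts per library and gene. With edgeR's quasi-likelihood test 0 had an adjusted p under 0.05 and 0 an unadjusted p under 0.05, the lowest adjusted p being 0.717. Among the 13374 genes tested the same test called 0.0% in either direction, and 6.18% had an unadjusted p under 0.05 (4.01% higher and 2.17% lower in RNAi). DESeq2, which called 0.104% of the genes it tested, called 0 of the 47, as did edgeR's likelihood ratio test and limma-voom. The count at an unadjusted p under 0.05 depended on the libraries: it was 7 without L4440 replicate 2, where 7.94% of all genes reached it, and 3 without RNAi replicate 3, where 8.90% did. With a block of consecutive library numbers it was 5, where 10.8% of all genes did. It was also 3 with no filter, 2 with library totals and 1 each with RLE factors and the length correction. For these settings the share of all genes was not taken, so their counts cannot be set against a background. The count was 0 without L4440 replicate 1 or 3 and without RNAi replicate 1 or 2. With upper quartile factors, the stricter filter, DESeq2, the likelihood ratio test and limma-voom it was also 0. In any of the settings named, 0 of the 47 genes passed the adjusted threshold. Libraries of the groups did not overlap for 2 of the 47 genes (4.26%), both with RNAi below, where 10.9% of all genes tested did so (5.53% with RNAi above, 5.32% with RNAi below).

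The intervals show how large a difference these libraries could hide. For 44 of the 47 genes the 95% interval of the log2 fold change lay within 0.5 of 0, which is a 1.41-fold change in either direction. All 20 vha genes were among them, with the widest bounds at -0.363 for vha-17 and 0.356 for vha-5. The 3 autophagy genes with wider intervals were epg-5, atg-2 and epg-2, with upper bounds of 0.70, 0.61 and 0.53.

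**Figure D1:**
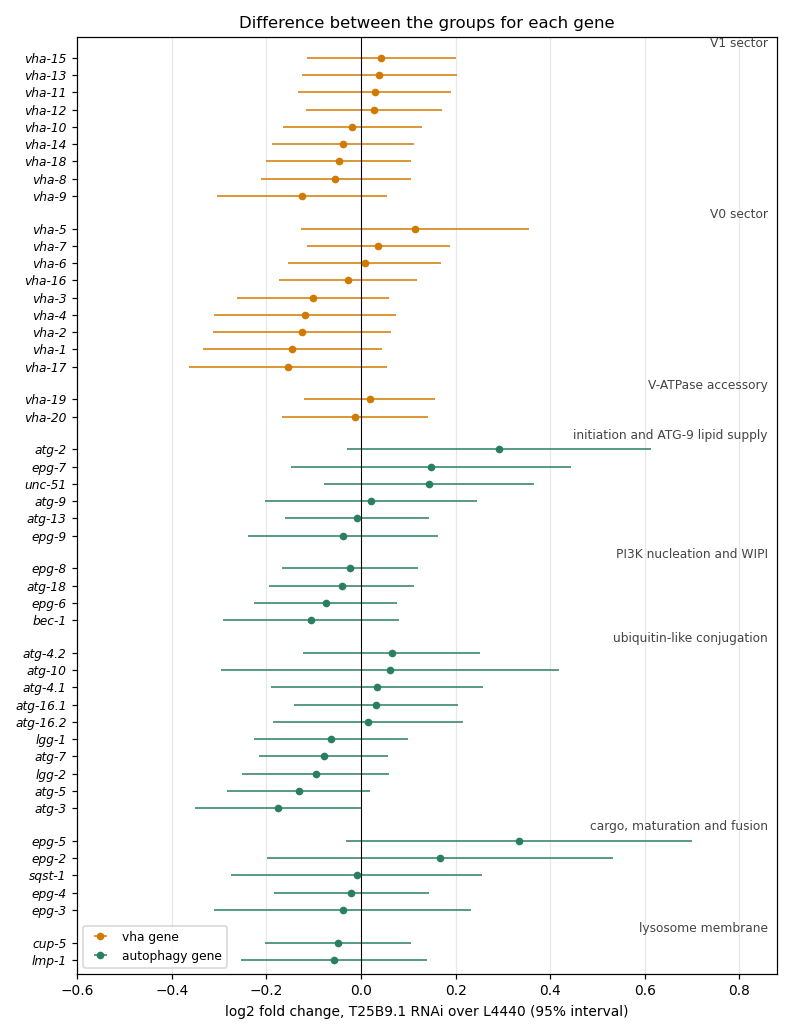
log2 fold change of each of the 47 genes, T25B9.1 RNAi over L4440, with its 95% interval from edgeR's quasi-likelihood fit (3 libraries per group), grouped by role; vha genes are orange and autophagy genes green. Every interval includes 0, with that of atg-3 ending at 0.003, and epg-5 and atg-2 lie farthest to the right.

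Set side by side, the vha and autophagy genes did not separate by their middle values. The median log2 fold change was -0.022 over the 20 vha genes and -0.021 over the 27 autophagy genes, against 0.002 over all genes tested. Both medians turned to 0.004 with upper quartile factors and to 0.003 and 0.005 with library totals only, and the autophagy median to 0.010 without L4440 replicate 2 and the vha median to 0.006 without L4440 replicate 1. Of the vha genes 8 lay above 0 and 12 below, and of the autophagy genes 11 above and 16 below, while 50.6% of all genes tested lay above 0 and 49.4% below. With upper quartile factors or library totals the median of all genes was 0.028 and 25 of the 47 lay above 0, so these counts, and those by role and pathway that follow, hold for TMM factors. The median deviation of the vha genes from the L4440 mean, less that of the autophagy genes, was 0.070, -0.071 and -0.004 in RNAi replicates 1, 2 and 3, against 0.027, -0.120 and 0.035 in L4440 replicates 1, 2 and 3. The means were -0.002 ± 0.0706 with RNAi and -0.019 ± 0.0871 with L4440 (SD, n = 3 each), so the groups overlapped throughout. Among vha genes the values ran from -0.15 to 0.12 and among autophagy genes from -0.18 to 0.33.

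What separated the families in every library was their level. Levels between genes are given as CPM per kilobase of annotated exon. The median vha gene stood at 138, 135 and 148 CPM per kb in the RNAi libraries, against 152, 139 and 153 in the L4440 libraries. The median autophagy gene stood at 30.7, 29.4 and 28.9 CPM per kb in the RNAi libraries, against 31.2, 33.4 and 28.6 in the L4440 libraries. The ratio of the medians was 4.75 ± 0.335 with RNAi and 4.79 ± 0.608 with L4440 (SD, n = 3 each). Of the 20 most abundant of the 47 genes, 16 were vha genes. The median over all genes tested was 9.60 CPM per kb, and 44 of the 47 genes lay above it.

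**Figure D2:**
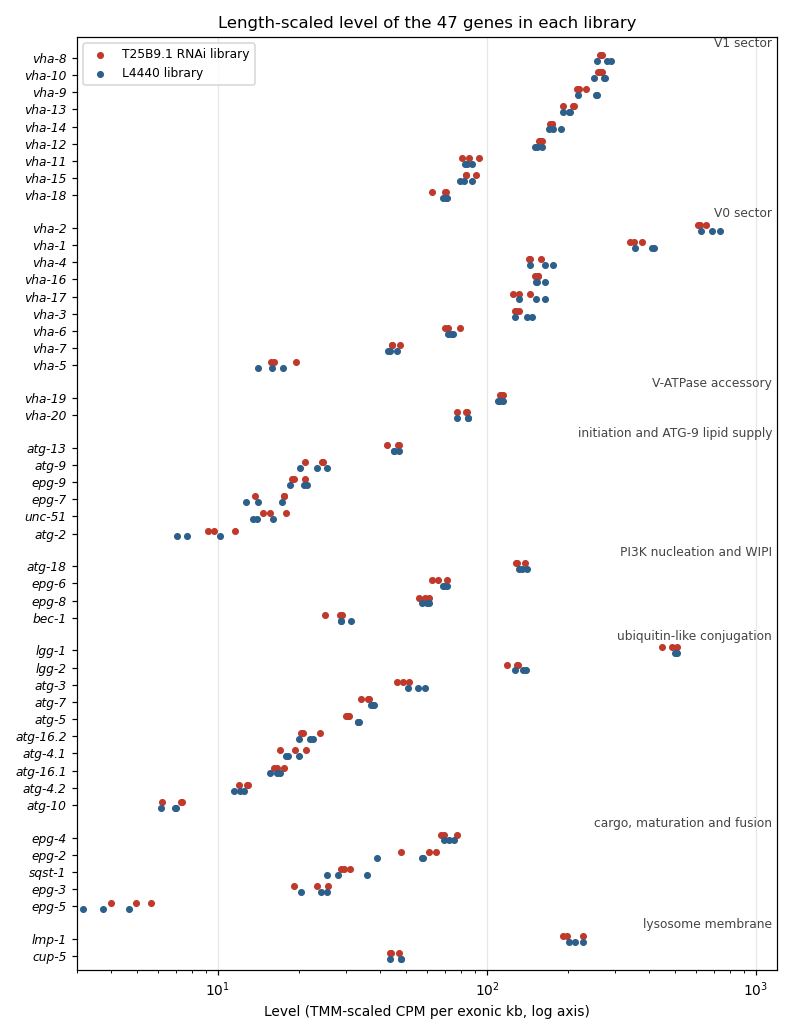
Level of each of the 47 genes in every library, as TMM-scaled CPM per exonic kilobase on a log axis, grouped by role, with T25B9.1 RNAi libraries (red) above L4440 libraries (blue) in each row. Of the 20 highest genes 16 are vha genes; lgg-1, lmp-1, atg-18 and lgg-2 are the autophagy genes among them, vha-5 lies far to the left at 16.4 CPM per kb, and the colours overlap in every row except those of atg-5 and atg-7.

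The V1 sector is the part of the pump that faces the cytosol and splits ATP, and its 9 genes held closely together. The log2 fold changes ran from -0.125 to 0.043, with a median of -0.018. The most abundant per length was vha-8, the stalk subunit E, at 303, 299 and 301 CPM in the RNAi libraries, against 329, 292 and 316 CPM in the L4440 libraries. The RNAi libraries fell inside the L4440 range, with a log2 fold change of -0.054 (SE 0.0699). The catalytic subunit A gene vha-13 averaged 477 ± 24.6 CPM with RNAi and 465 ± 13.8 CPM with L4440 (SD, n = 3 each). Its partner in the catalytic ring, the subunit B gene vha-12, stood at 298, 305 and 299 CPM with RNAi, against 289, 305 and 291 CPM with L4440. These 2 subunit genes therefore differed by 0.039 and 0.028 on the log2 scale, less than their SEs of 0.0724 and 0.0636.

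The lowest value of the V1 sector belonged to vha-9, which encodes the small subunit F of the central rotor. It stood at 112, 114 and 121 CPM in the RNAi libraries, against 132, 113 and 133 CPM in the L4440 libraries. L4440 replicates 1 and 3 lay above all others and L4440 replicate 2 lay among the RNAi ones, for a log2 fold change of -0.125 (edgeR adjusted p = 0.717, SE 0.0789). The remaining V1 genes, vha-10 (subunit G), vha-11 (C), vha-14 (D), vha-15 and vha-18 (both H), had log2 fold changes between -0.047 and 0.043.

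The V0 sector is the membrane part through which protons pass, and its genes spread more widely. Of 9 genes 6 were below 0, the median was -0.102, and in the fit corrected for gene length described further on it was -0.066. The 4 proteolipid genes, vha-1, vha-2 and vha-3 (subunit c) and vha-4 (subunit c″), encode the rotating ring that carries the protons. The most abundant of all 47 genes was vha-2, at 596, 585 and 632 CPM in the RNAi libraries, against 663, 604 and 708 CPM in the L4440 libraries. Its level of 655 CPM per kb was within the top 1.30% of genes tested. Its log2 fold change was -0.125 (edgeR adjusted p = 0.723, SE 0.083).

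The gene vha-1 also had L4440 replicates 1 and 3 as its highest libraries, at 174, 180 and 193 CPM with RNAi, against 214, 181 and 210 CPM with L4440, a log2 fold change of -0.145 (edgeR adjusted p = 0.717, SE 0.0835). For vha-4 the values were 142, 141 and 155 CPM with RNAi, against 161, 142 and 172 CPM with L4440. For vha-3 they were 62.6, 61.7 and 64.2 CPM with RNAi, against 71.6, 62.1 and 68.7 CPM with L4440. In all 4 genes L4440 replicate 2 lay at the level of the RNAi libraries while L4440 replicates 1 and 3 lay above. The sum of the 4 was 974, 967 and 1044 CPM with RNAi, against 1110, 989 and 1159 CPM with L4440, so the groups overlapped. Between libraries of consecutive numbers (RNAi and L4440 replicates of the same number) the RNAi one was the lower each time, for the sum and for each gene. In replicates 2 the differences were small for vha-1, vha-3 and vha-4, with vha-3 at 61.7 against 62.1 CPM. How many of all genes tested lay on one side each time was not counted. Leaving out 1 library moved the log2 fold changes in both directions. They were -0.071 for vha-2 and -0.056 for vha-4 without L4440 replicate 3, and -0.058 for vha-3 without L4440 replicate 1. Without L4440 replicate 2 they were -0.212 for vha-1, -0.177 for vha-2, -0.152 for vha-3 and -0.185 for vha-4. Reads of vha-2 and vha-3, which encode near-identical proteins, could be shared between them, and the counts of each are uncertain to that extent. A stretch of 219 exonic bases of vha-2 (22.7% of them) is also annotated to R10E11.6 on the same strand.

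Of the pump's small subunits, vha-17 (subunit e) had the lowest value of the 20 vha genes. It stood at 73.1, 69.4 and 80.4 CPM in the RNAi libraries, against 84.1, 73.2 and 90.8 CPM in the L4440 libraries. The log2 fold change was -0.154 (edgeR adjusted p = 0.717, SE 0.0923), and with the block of consecutive library numbers it was -0.153 (edgeR adjusted p = 0.451, SE 0.058). It was -0.083 without L4440 replicate 3, -0.228 without L4440 replicate 2 and -0.080 in the length correction. The gene vha-16 (subunit d), which couples the ring to the stalk, averaged 226 ± 2.81 CPM with RNAi and 230 ± 9.79 CPM with L4440 (SD, n = 3 each). Accessory subunits behaved likewise: vha-19 stood at 215, 218 and 221 CPM with RNAi, against 215, 211 and 220 CPM with L4440, and vha-20 had a log2 fold change of -0.013 (SE 0.0684).

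The large membrane subunit a, which decides where in the cell and in which tissue the pump sits, is encoded by 4 genes. The most abundant were vha-6, which serves the apical intestine, and unc-32, which does not carry a vha- name and is prominent in neurons. In the RNAi libraries vha-6 stood at 215, 194 and 189 CPM, against 202, 193 and 199 CPM in the L4440 libraries. For unc-32 the mean was 245 ± 11.9 CPM with RNAi and 249 ± 12.8 CPM with L4440 (SD, n = 3 each). Neither gene separated the groups.

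The epidermal gene vha-7 stood at 173, 186 and 173 CPM with RNAi, against 168, 181 and 170 CPM with L4440. The gene vha-5, which acts in the epidermis and the excretory canal, stood at 57.7, 46.7 and 47.8 CPM with RNAi, against 51.6, 41.9 and 46.96 CPM with L4440. Only RNAi replicate 1 lay above the L4440 range of vha-5, and its log2 fold change of 0.115 (SE 0.106) was 0.010 without that library and 0.047 without L4440 replicate 2. RNAi replicate 1 is also the library with the high sum of epidermis and moulting markers, though col-19 and bli-1 were not high there. Of those markers 8 of 10 were above 0 with a median of 0.447. Their part in the vha-5 value was not tested.

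The RNA shares of genes for alternative subunits varied little between libraries. They are shares in whole worms, and the make-up of assembled pumps was not measured. On levels per kb, vha-6 gave 36.1 ± 1.18% of the 4 subunit a genes with RNAi and 36.3 ± 1.12% with L4440 (SD, n = 3 each). The share of unc-32 lay between 32.6 and 35.3% over all 6 libraries. Among the proteolipid genes vha-2 gave 49.7 ± 0.420% with RNAi and 49.6 ± 0.939% with L4440. Between the subunit H genes vha-15 gave 59.2, 54.1 and 54.3% in the RNAi libraries, against 55.3, 53.7 and 53.9% in the L4440 libraries, with RNAi replicate 1 the highest. In counts, vha-15 stood at 160, 147 and 147 CPM with RNAi, against 156, 141 and 146 CPM with L4440, and vha-18 at 92.2, 104 and 103 CPM with RNAi, against 105, 101.3 and 104 CPM with L4440.

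The only position where the groups did not overlap was subunit B, shared by vha-12 and spe-5, which is known for its role in sperm. The share of spe-5 was 3.46, 4.15 and 4.15% in the RNAi libraries, against 4.18, 4.25 and 4.33% in the L4440 libraries. RNAi replicates 2 and 3 lay just under the L4440 range and RNAi replicate 1 lay well under it. The gene spe-5 itself stood at 9.36, 11.6 and 11.4 CPM with RNAi, against 11.04, 11.9 and 11.6 CPM with L4440, a log2 fold change of -0.093 (SE 0.117), and these values overlap.

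**Figure D3:**
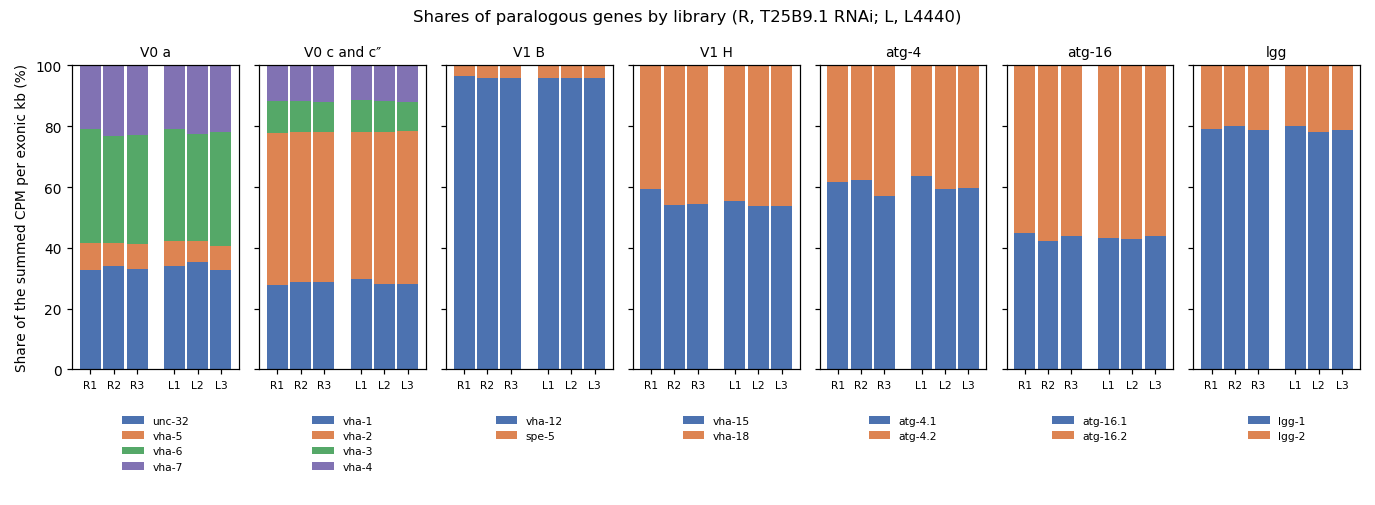
Share of each paralogous gene in the summed CPM per exonic kilobase, in percent, for 7 sets of genes; within each panel the 3 T25B9.1 RNAi libraries (R1 to R3) stand left of the 3 L4440 libraries (L1 to L3). Bars look alike across libraries, with vha-15 highest in R1 at 59.2% and lgg-1 between 78.1 and 80.0% in every library.

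Autophagy starts with the UNC-51 kinase and its partners, and with ATG-9 and ATG-2, which bring membrane and lipid to the growing sac. Of these 6 genes 4 were above 0, with a median log2 fold change of 0.082. The kinase gene unc-51 stood at 51.8, 45.2 and 42.7 CPM in the RNAi libraries, against 40.6, 46.6 and 39.2 CPM in the L4440 libraries. Only RNAi replicate 1 exceeded every L4440 library, and the log2 fold change was 0.143 (edgeR adjusted p = 0.724, SE 0.0977). It was 0.056 without RNAi replicate 1, 0.092 without L4440 replicate 3, 0.228 without L4440 replicate 2 and 0.079 in the length correction. The lipid transfer gene atg-2 stood at 87.6, 73.2 and 69.3 CPM with RNAi, against 57.8, 76.9 and 53.1 CPM with L4440. Its log2 fold change was 0.292 (edgeR adjusted p = 0.717, SE 0.142), 0.475 without L4440 replicate 2, 0.179 without RNAi replicate 1, 0.185 without L4440 replicate 3 and 0.038 in the length correction.

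The scaffold gene epg-7, the worm counterpart of Atg11, also had RNAi replicates 1 and 2 and L4440 replicate 2 as its highest libraries, at 79.4, 79.1 and 61.8 CPM with RNAi, against 63.7, 77.6 and 57.2 CPM with L4440. The most abundant gene of this step per length was atg-13, a subunit of the kinase complex, at 62.9, 70.1 and 69.2 CPM with RNAi, against 69.7, 66.9 and 66.8 CPM with L4440. Here the groups overlapped fully, with a log2 fold change of -0.009 (SE 0.0669). The remaining genes epg-9, a further subunit of that complex, and atg-9 had log2 fold changes of -0.038 and 0.021.

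The next step makes a phosphoinositide on the membrane, through BEC-1 and EPG-8, and the WIPI proteins ATG-18 and EPG-6 bind it. All 4 genes were below 0 with TMM factors, from -0.106 for bec-1 to -0.023 for epg-8, which was at 0.002 with upper quartile factors or library totals. With RNAi bec-1 stood at 33.4, 37.8 and 38.6 CPM, against 41.7, 38.4 and 38.2 CPM with L4440, a log2 fold change of -0.106 (SE 0.082) that was -0.049 without RNAi replicate 1. Its lowest library was RNAi replicate 1 and its highest L4440 replicate 1, while the other 4 lay within 37.8 to 38.6 CPM. The WIPI gene atg-18, most abundant of this step, stood at 231, 233 and 250 CPM with RNAi, against 237, 244 and 255 CPM with L4440.

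The conjugation genes attach LGG-1 and LGG-2, the worm counterparts of GABARAP and LC3, to the membrane. The gene lgg-1 was the second most abundant of the 47 per length, at 494 CPM per kb. It stood at 318, 362 and 345 CPM in the RNAi libraries, against 362, 354 and 356 CPM in the L4440 libraries. RNAi replicate 1 was the low library and RNAi replicate 2 reached the L4440 maximum, so that the log2 fold change was -0.064 (SE 0.0721). The gene lgg-2 stood at 123, 134 and 135 CPM with RNAi, against 133, 146 and 141 CPM with L4440, a log2 fold change of -0.096 (SE 0.0685). Of the 2 genes together, lgg-1 made up 79.3 ± 0.486% with RNAi and 79.0 ± 0.978% with L4440 on levels per kb (SD, n = 3 each).

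The enzymes that load these proteins included the lowest values of the 27 autophagy genes. Outside the rule, lgg-3, from the list of further autophagy genes, was lower, with a log2 fold change of -0.193 (SE 0.127). The conjugating enzyme gene atg-3 stood at 45.9, 48.2 and 50.8 CPM in the RNAi libraries, against 55.02, 50.2 and 58.4 CPM in the L4440 libraries. Only RNAi replicate 3 and L4440 replicate 2 overlapped, and the log2 fold change was -0.175 (SE 0.0785, edgeR unadjusted p = 0.0536 and adjusted p = 0.717). The gene atg-5, part of the complex that directs conjugation to the membrane, stood at 31.7, 30.8 and 31.4 CPM with RNAi, against 34.2, 34.5 and 34.2 CPM with L4440. Both groups were tight and did not overlap (log2 fold change -0.132, SE 0.0672, edgeR unadjusted p = 0.0818 and adjusted p = 0.717). The activating enzyme gene atg-7 was the other gene without overlap, at 71.0, 75.6 and 76.3 CPM with RNAi, against 78.7, 77.5 and 79.3 CPM with L4440.

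The other conjugation genes lay at or a little above 0. The protease genes atg-4.1 and atg-4.2 process LGG-1 and LGG-2. For atg-4.1 the values were 31.4, 34.4 and 27.4 CPM with RNAi, against 32.4, 29.5 and 28.97 CPM with L4440, and for atg-4.2 they were 20.3, 21.7 and 21.9 CPM with RNAi, against 19.5, 21.2 and 20.5 CPM with L4440. The gene atg-16.1 stood at 30.8, 32.8 and 30.1 CPM with RNAi, against 30.96, 31.6 and 28.97 CPM with L4440, and atg-16.2 at 38.4, 45.3 and 38.96 CPM with RNAi, against 41.4, 42.4 and 37.5 CPM with L4440; both encode forms of the partner of ATG-5. The balance of each pair overlapped between groups: atg-4.1 gave 60.4 ± 3.06% of its pair with RNAi and 60.9 ± 2.31% with L4440, and atg-16.1 gave 43.7 ± 1.26% with RNAi and 43.3 ± 0.469% with L4440 (SD, n = 3 each). The rarest gene in counts was atg-10, with 87 to 159 counts per library and a log2 fold change of 0.061 (SE 0.158).

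Cargo and maturation genes varied most between libraries of the same group. The cargo receptor gene sqst-1, whose protein builds up when autophagy is blocked, stood at 70.0, 66.2 and 64.4 CPM in the RNAi libraries, against 57.5, 81.0 and 63.2 CPM in the L4440 libraries. The L4440 libraries were thus both the lowest and the highest, and the log2 fold change was -0.009 (SE 0.117). The most abundant per length was epg-4, an endoplasmic reticulum protein of autophagosome formation, at 87.0, 89.5 and 99.6 CPM with RNAi, against 89.4, 93.4 and 97.6 CPM with L4440. The tethering gene epg-5, needed for fusion with late endosomes and lysosomes, had the highest value of the 47 genes. It stood at 41.2, 36.1 and 29.2 CPM with RNAi, against 27.4, 33.95 and 22.9 CPM with L4440, a log2 fold change of 0.334 (edgeR adjusted p = 0.717, SE 0.161). RNAi replicates 1 and 2 lay above every L4440 library and RNAi replicate 3 lay inside their range. Its value was 0.209 without RNAi replicate 1, 0.206 without L4440 replicate 3, 0.502 without L4440 replicate 2 and 0.083 in the length correction. With the block it was 0.339 (edgeR unadjusted p = 0.0103 and adjusted p = 0.430), the RNAi library being the higher of each consecutive pair. How many of all genes tested were higher in each pair was not counted. The gene epg-2, which links germ granule components to autophagy, averaged 132 ± 19.8 CPM with RNAi and 117 ± 24.8 CPM with L4440 (SD, n = 3 each), and its log2 fold change of 0.167 was -0.001 without L4440 replicate 3. The remaining gene epg-3 had a log2 fold change of -0.039 (SE 0.12).

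The lysosome membrane was represented by lmp-1 (LAMP) and cup-5 (a calcium channel of the mucolipin family). In the RNAi libraries lmp-1 stood at 207, 200 and 239 CPM, against 222, 211 and 238 CPM in the L4440 libraries. The replicates 3 were the highest in both groups, and the log2 fold change was -0.058 (SE 0.0868). For cup-5 the values were 119, 118 and 128 CPM with RNAi, against 118, 129 and 130 CPM with L4440, a log2 fold change of -0.048 (SE 0.0677).

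The small differences of the 47 genes were ordered by gene length, which the rule did not use. All 7 vha genes with under 1000 exonic bases were below 0, with a median log2 fold change of -0.125, and all 4 vha genes with 2000 or more were above 0, with a median of 0.038. Of the autophagy genes in the same classes, 2 of 3 were below 0 (median -0.064) and 6 of 10 above 0 (median 0.082). Among all genes tested, 2382 of 3805 with under 1000 exonic bases were below 0 (median -0.059). Of 3705 genes with 2000 or more, 2666 were above 0 (median 0.074). Across genes, Pearson's r between the log2 fold change and log2 exonic length was 0.851 over the 20 vha genes, 0.718 over the 27 autophagy genes and 0.756 over all 47, with Spearman's rho of 0.866, 0.611 and 0.708. Over 13281 genes tested with a length it was 0.215, a value that depended on the filter: it was 0.290 with a stricter filter, 0.033 in the gene set of DESeq2 and -0.020 with no filter. These genes share their 6 libraries and are not independent replicates. Without the longest 2 genes, atg-2 (7547 exonic bases) and epg-5 (7291), r over the other 45 was 0.648.

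The same order appeared in single libraries of both groups. Over the 47 genes, r between length and the deviation from the L4440 mean was 0.755, 0.699 and 0.122 in RNAi replicates 1, 2 and 3, against -0.327, 0.776 and -0.689 in L4440 replicates 1, 2 and 3. The relation was thus positive in all 3 RNAi libraries, weakly so in RNAi replicate 3, and in L4440 replicate 2. It was negative in L4440 replicates 1 and 3. Deviations from the L4440 mean cancel over the L4440 libraries, whose relations therefore cannot all share a sign. The RNAi libraries are all measured against that same mean. These signs thus cannot decide whether the groups differ in the relation. Leaving out 1 library at a time, r between the log2 fold change and length ran from 0.573 without L4440 replicate 3 to 0.824 without L4440 replicate 2. With counts corrected for exonic length in each library by a lowess curve over all tested genes, r was 0.165 over the 47 genes. The median log2 fold change of the initiation genes was then 0.003, that of the V1 genes 0.004 and that of the V0 genes -0.066. The curve takes out length relations shared by all tested genes, also any that differ between the groups. A fall in r was thus built into the correction, and the corrected values cannot decide where the relation came from.

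**Figure D4:**
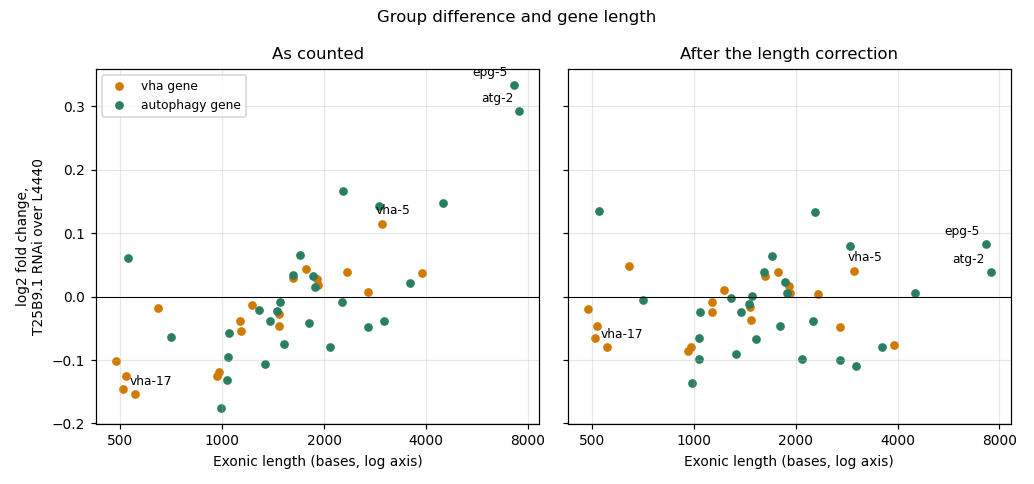
log2 fold change of the 47 genes, T25B9.1 RNAi over L4440, against exonic length in bases on a log axis, as counted (left) and after the length correction (right); vha genes are orange and autophagy genes green. On the left the points run from vha-17 at -0.154 up to epg-5 at 0.334 (r = 0.756). On the right the slope, which the correction is built to remove, is nearly gone (r = 0.165).

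**Figure D5:**
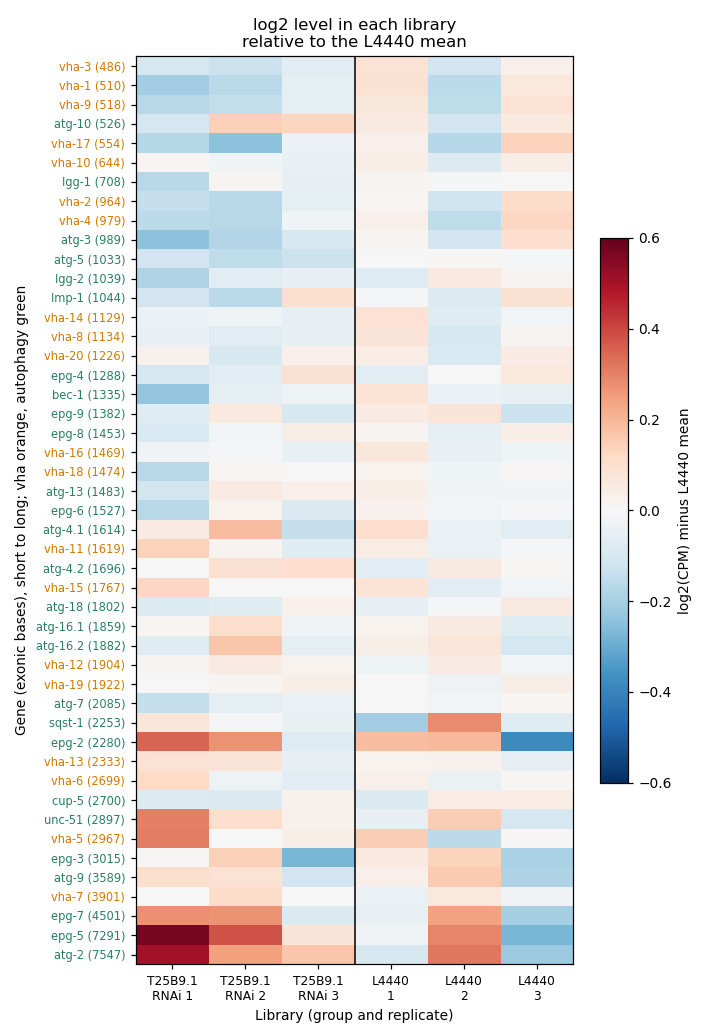
log2 CPM of each gene in every library minus its L4440 mean, with genes from short (top) to long (bottom) and T25B9.1 RNAi libraries left of L4440 libraries; red is above and blue below the L4440 mean. RNAi replicates 1 and 2 and L4440 replicate 2 shift from blue at the top to red at the bottom, while L4440 replicate 3 runs the other way.

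Neighbouring genes gave a further view of the same small values. The gene vha-1 (chromosome III, 9781254 to 9781763 on the plus strand, build WBcel235) lies 400 bases before vha-2 (9782164 to 9783224). They had log2 fold changes of -0.145 and -0.125. The gene vha-3 (chromosome IV, 2315460 to 2315945 on the minus strand) lies 892 bases before vha-11 (2307815 to 2314567), and these had -0.102 and 0.029. The short proteolipid gene and the longer subunit C gene thus lay on opposite sides of 0. Over 27 pairs of one of the 47 genes with a tested coding gene on the same strand within 1000 bases, 18 had the same sign and 9 opposite signs. A pair within the 47 genes, such as vha-1 with vha-2, entered from each side. The share of such pairs with the same sign among all genes tested was not counted, so these counts have no background.

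Other genes of these pathways, taken from lists of known components, also gave 0 calls at an adjusted p under 0.05 in edgeR's quasi-likelihood test. Of 11 further autophagy genes 7 were above 0, with a median of 0.052, and 1 had an unadjusted p under 0.05. That gene was mxl-3, which opposes the lysosome regulator HLH-30, at 8.68, 8.39 and 7.11 CPM in the RNAi libraries, against 7.18, 5.70 and 6.32 CPM in the L4440 libraries (log2 fold change 0.331, SE 0.146, edgeR adjusted p = 0.717). For hlh-30, the worm counterpart of TFEB, the values were 69.6, 53.2 and 53.5 CPM with RNAi, against 45.8, 57.5 and 48.9 CPM with L4440, with RNAi replicate 1 the highest. The mitophagy kinase gene pink-1 averaged 78.8 ± 3.03 CPM with RNAi and 84.9 ± 4.14 CPM with L4440 (SD, n = 3 each).

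Of 13 genes of TOR and nutrient sensing 9 were below 0, with a median of -0.068. The count was not split by whether a gene holds autophagy back or favours it. The Ragulator subunit gene lmtr-2 stood at 40.8, 46.1 and 45.6 CPM with RNAi, against 56.9, 45.2 and 52.6 CPM with L4440 (log2 fold change -0.221, SE 0.0964, edgeR unadjusted p = 0.0479). The groups overlapped through L4440 replicate 2. The GTPase gene raga-1 stood at 108, 121.5 and 117 CPM with RNAi, against 133, 121 and 123 CPM with L4440, and the folliculin gene flcn-1 averaged 150 ± 11.4 CPM with RNAi and 136 ± 10.4 CPM with L4440 (SD, n = 3 each for flcn-1).

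Among 11 genes for fusion with the lysosome 7 were below 0, with a median of -0.027. The GTPase gene rab-7, which marks late endosomes, stood at 119, 140 and 131 CPM with RNAi, against 147, 150 and 145 CPM with L4440 (log2 fold change -0.176, SE 0.0744, edgeR unadjusted p = 0.0426). It was 1 of 3 genes of that list (27.3%) whose groups did not overlap, all with RNAi below. Among all genes tested 10.9% did not overlap in either direction, and 5.32% had RNAi below. This share was the highest of the 5 pathway lists. The list of lysosome lumen and transport had 2 such genes (15.4%), both with RNAi below, and the other lists had 0. The others of the fusion list were ccz-1, an activator of RAB-7, and the SNARE gene snap-29. For ccz-1 the means were 66.6 ± 0.844 CPM with RNAi and 70.2 ± 2.46 CPM with L4440. Those of snap-29 were 78.1 ± 4.47 CPM with RNAi and 84.4 ± 2.63 CPM with L4440 (SD, n = 3 each). Of 13 tested genes of the lysosome lumen and its transporters 10 were below 0, with a median of -0.070. The cathepsin L gene cpl-1 stood at 936, 916 and 970 CPM with RNAi, against 1078, 1029 and 1065 CPM with L4440 (log2 fold change -0.169, SE 0.0731, edgeR unadjusted p = 0.0470). The cathepsin B-like gene cpr-6 averaged 1100 ± 54.2 CPM with RNAi and 1240 ± 82.6 CPM with L4440, and the hexosaminidase gene hex-1 averaged 55.9 ± 6.06 CPM with RNAi and 62.8 ± 3.84 CPM with L4440 (SD, n = 3 each).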

How the data were processed

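Counts per gene of 6 libraries of whole worms were analysed. The TruSeq v2 kit that the labels name does not mark strand, so overlapping genes on opposite strands cannot be told apart. Exons of a gene on the opposite strand overlap 9.04% of atg-13, 6.68% of vha-17, 6.20% of atg-4.1 and 5.15% of vha-19. They overlap at most 3.87% of vha-18, atg-10, epg-2, vha-5, epg-8, cup-5 and epg-5. These are shares of exonic bases, and the share of reads affected was not measured. The deposited counts are whole numbers, for which the submitters' processing notes name featureCounts 1.4.6-p4, the aligner STAR 2.4.1d, bcl2fastq 1.8.4 and the build WBcel235; options and annotation release are not known here. A second deposited table of RPKM values, which no result rests on, was compared with the counts: relative to L4440 replicate 1, the ratio of value to count ran from 0.576 to 1.737 among 8620 genes, so in 4 of the 6 libraries it is no common scaling of the counts of L4440 replicate 1 (in RNAi replicate 3 the ratio was 0.998 to 1.001).

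Genes passing filterByExpr (13374) received TMM factors, and edgeR 4.0.16 in R 4.3.3 gave a 2-sided quasi-likelihood test, with Benjamini-Hochberg adjustment over all of them and a threshold of 0.05. SE is the log2 fold change divided by the root of F, and intervals use the t distribution with the fit's degrees of freedom. Alternatives were other scaling factors, DESeq2 1.42.0, edgeR's likelihood ratio test, limma-voom (limma 3.58.1), other filters, each library left out, a block, and a lowess length correction (span 0.3). Exonic lengths and places came from Ensembl release 115 of WBcel235. An exact permutation test of 3 against 3 cannot pass the threshold and was not used.

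Replicate numbers were given in accession order, and replicates of the same number have consecutive library numbers in the titles. Deviations from group means correlated at 0.216, 0.418 and 0.285 for consecutive library numbers (13 and 14, 17 and 18, 21 and 22), against -0.382 to 0.101 for the other pairings. Libraries of the same number thus deviated together, but the labels name no batch that they share, and the block was an alternative. Values per library are given for the genes the rule names singly, the 6 genes of each family with the lowest p, the most abundant gene of each role per length, and paralogs. The per-library values of atg-7 and epg-7 were added after they were seen, and unc-32 and the other members are given by range, mean or fold change. From each further pathway list up to 3 genes with the lowest p are named. The genes and lists were chosen with earlier results of these data known. No sequence was used here.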

Additional observations from a re-analysis of the deposited data

How the results depend on the processing

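In all 16 alternatives 0 of the 47 genes passed the adjusted threshold, with a lowest adjusted p of 0.388 (epg-5, no filter), and 26 of the 47 kept the sign of their log2 fold change. The 2 family medians and their difference moved by less than 1 SD of the libraries each time, including with the replicate block of consecutive library numbers (-0.024 for autophagy genes, -0.023 for vha genes). With 1 library left out the vha median ran from -0.051 to 0.006 and the autophagy median from -0.044 to 0.010. Over all genes tested edgeR called 0, against 14 with DESeq2, 12 with the likelihood ratio test, 139 with no filter and 1 each with RLE factors and the length correction, and 0 to 1 with a library left out. The T25B9.1 log2 fold change passed the adjusted threshold with RLE factors (-1.835), DESeq2 (-1.844), the likelihood ratio test (-1.835), no filter (-1.848) and the length correction (-1.818). The cause was not tested. The r of 0.756 with length lay between 0.751 and 0.758 in the alternatives that kept all libraries and made no length correction. Differences under the intervals given were not detectable with 3 libraries a group, and low counts limit atg-10.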
